A study of Caenorhabditis elegans with 4 samples.

Results

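The genes described here encode sperm proteins and factors of sperm formation in the nematode Caenorhabditis elegans. They were chosen by name alone, as every probe set whose listed gene symbol, or current symbol, starts with msp-, spe-, ssp-, sss- or nspd- followed by a digit, together with gsp-3, gsp-4, fer-1 and fog-3. This gave 89 of the 22625 probe sets on the array. Of the 89, 74 list 1 gene and read 72 of the 17118 genes that have such a probe set, 13 list several genes that are all members, and 2 list several genes of which only some are. The 74 hold 24 probe sets for major sperm proteins (msp) and 50 for the other families, of which 30 are spe, 8 ssp, 6 nspd, 2 sss and 4 are gsp-3, gsp-4, fer-1 and fog-3.

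The study exposed wild-type young adult hermaphrodites for 24 h to BPA (bisphenol A), DEHP (a phthalate diester) or NP (read here as nonylphenol), each at 1/100 of its own 24 h LC50, the concentration lethal to the median worm. The exposed worms were kept in a salt solution (K-medium) at 20 °C with nothing to eat. Whether the control worms, given as untreated, stood in that medium or were fed is not stated. All worms came from age-synchronized plates with Escherichia coli OP50 as food and were 3 days old. Each group had 1 one-colour Affymetrix array of total RNA from worms, so nothing below has a replicate or a test, and every value describes these 4 arrays. The molar doses of the chemicals were not matched.

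In hermaphrodites of this species the germline makes sperm for a short time at the end of larval life and then switches to oocytes for good, so an adult carries stored sperm that it no longer makes. Major sperm protein is the building block of the filaments that let the amoeboid sperm crawl, and when released from sperm it is also the signal that triggers oocyte maturation and ovulation. It is encoded by a large family of nearly identical gene copies. The spe genes (defective spermatogenesis) act at single steps of sperm formation, activation or fertilization. Mature sperm are transcriptionally silent.

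The near-identity of the msp copies bears on every value. Affymetrix marks a probe set _s_ or _x_ where its probes can match several transcripts, and such probe sets are called shared here. Of the 24 msp probe sets, 23 are shared, all of the _x_ type. The 24th reads msp-32 on unshared probes. Of the 50 other members, 20 are shared and 30 unshared. A shared msp probe set is therefore named below by the gene it lists, and its signal cannot be assigned to that copy. In RNA of whole worms, more or fewer sperm-forming cells and more or less transcript per cell cannot be told apart either.

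Intensities are given as deposited. Differences are on the log2 scale between median-scaled arrays, with values under an intensity of 28.3, the pooled 25th percentile, raised to it, and they are relative to the median detected probe set of that pair of arrays. A probe set counts as detected in a pair where the brighter array lies at or above the pooled median, a scaled intensity of 129. A member at least 2-fold from 0, a relative difference of 1 or more either way, is counted as higher or lower.

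The msp signal was higher on the DEHP array than on any other array for each of the 23 shared msp probe sets. The msp-53 probe set had an intensity of 800 with BPA, 3516 with DEHP and 615 with NP, against 856 in the control. That of msp-76 had 212 with BPA, 1279 with DEHP and 185 with NP, against 296 in the control. In both the DEHP array stood alone, with the BPA, NP and control arrays near each other. The relative DEHP minus control difference was 2.04 for msp-53 and 2.11 for msp-76. Over the 23 probe sets the median intensity was 269 with BPA, 1190 with DEHP and 185 with NP, against 309 in the control.

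Of the 23 msp probe sets detected in the DEHP and control pair, 19 were at least 2-fold higher with DEHP and 0 were lower. Among all 11890 probe sets detected in that pair, 2.87% were higher by that measure and 5.29% lower. The median relative difference of the msp probe sets was 1.62, a 3.07-fold level, with a range of 0.61 to 2.11, whereas over all detected probe sets the median is 0 by construction. The middle 50% of the msp values lay between 1.42 and 1.90, against -0.29 and 0.24 over all detected probe sets. Of the 23, 22 lay at or above the detection level on the control array itself, so they did not depend on the DEHP array to be counted.

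**Figure D1:**
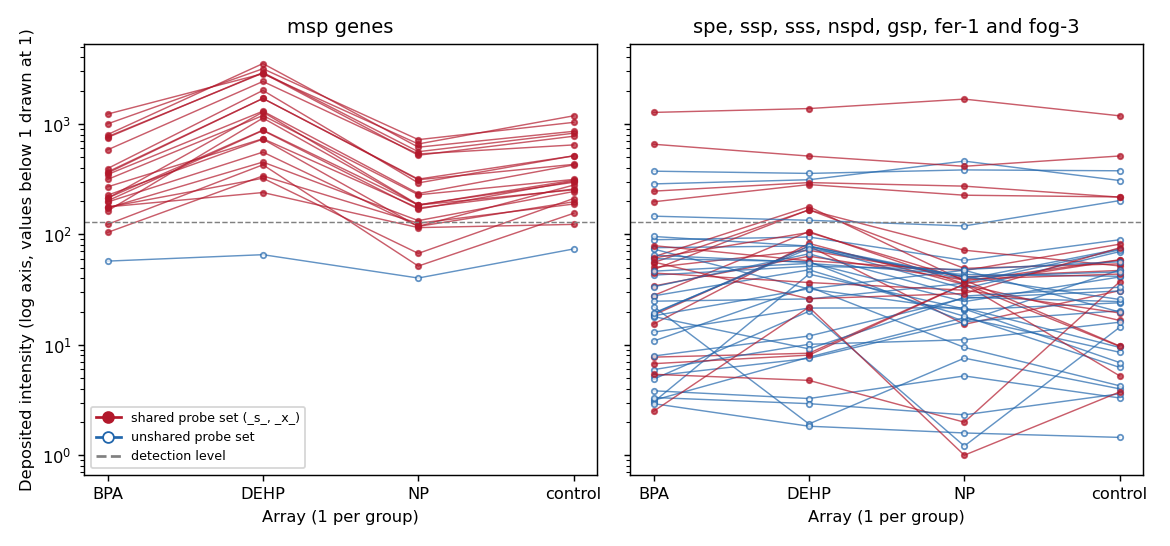
Deposited intensity (log axis) of the 74 probe sets that list 1 member gene, on the BPA, DEHP, NP and control arrays, with msp on the left and the other families on the right. Each line is a probe set, red and filled for shared, blue and open for unshared. The dashed line marks 129, the detection level on scaled intensity, so on this axis of deposited values it is approximate. The shared msp lines peak together on the DEHP array, and the unshared msp-32 line (65.4 with DEHP against 73.7 in the control) does not.

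The gene with both kinds of probe set was msp-32. Its shared probe set read 173 with BPA, 451 with DEHP and 133 with NP, against 244 in the control. Its unshared probe set read 57.2 with BPA, 65.4 with DEHP and 40.2 with NP, against 73.7 in the control. The DEHP minus control difference was thus 0.89 on the shared probes and -0.17 on the unshared ones. All 4 unshared values lay below the detection level, so the absence of a DEHP peak there was read at an intensity where a difference may not be measurable. No msp member was detected on unshared probes.

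The 4 shared msp probe sets under 2-fold with DEHP were msp-142 (0.61), msp-63 (0.85), msp-32 (0.89) and msp-74 (0.96). The members just past the threshold were msp-65 (1.27), with 2848 against 1183, and msp-33 (1.38), with 727 against 279. According to the RefSeq table for WBcel235, the 24 msp probe sets list genes on chromosome IV (10) and chromosome II (14). All 4 under 2-fold list genes on chromosome II. The relative DEHP minus control median was 1.90 over the 10 on chromosome IV and 1.49 over the 13 detected on chromosome II. Control intensities were 296 to 1183 on the chromosome IV probe sets and 73.7 to 430 on the chromosome II ones, which is a property of the probes as well as of the transcripts and does not rank the genes.

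Probe sets of msp genes that were dimmer by their mean over the 4 arrays tended to smaller differences with DEHP. Across the 23 shared msp probe sets, the mean log2 level over the 4 arrays and the DEHP minus control difference had a Pearson r of 0.58 and a Spearman rho of 0.60. This is across probe sets that share target sequence and the same 2 arrays, so the points are not independent. The mean level includes the DEHP array, so a high DEHP value raises both quantities. Part of the positive relation is therefore built in, and its size is not a result. Position and brightness cannot be told apart in this family, since the 11 dimmest of the 23 all list chromosome II genes. The highest msp difference belonged to a probe set of moderate brightness, msp-76.

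**Figure D2:**
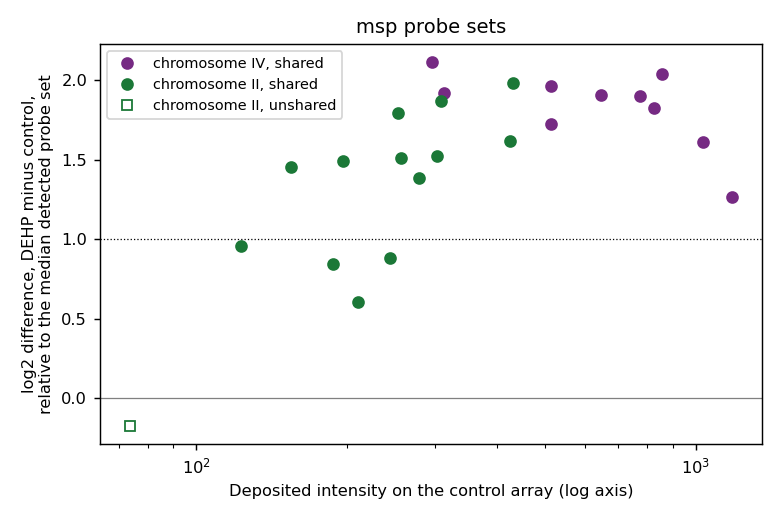
Relative log2 difference of DEHP minus control (vertical) against the control intensity (log axis) for the 24 msp probe sets, coloured by the chromosome of the listed gene, with shared probe sets filled and the unshared one open. The chromosome IV probe sets lie between 1.27 and 2.11, the 4 shared ones under 1 list chromosome II genes, and the unshared msp-32 probe set lies at -0.17.

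The DEHP array also stood above the other exposed arrays, in pairs that do not involve the control and in which both groups were unfed. These pairs use the same DEHP array as the control pair, so they are not separate readings of it. Against BPA, 21 of 23 detected msp probe sets were at least 2-fold higher with DEHP, where 2.14% of all detected probe sets were (and 2.6% lower). Their median relative difference was 1.93. Against NP, 23 of 23 were at least 2-fold higher, where 5.85% of all detected probe sets were (and 2.12% lower), with a median of 2.36. The BPA pair had its extremes at msp-45 (2.80), with intensities of 1129 with DEHP and 163 with BPA, and msp-74 (0.45), with 239 and 177. The NP pair had its extremes at msp-64 (3.03), with 426 with DEHP and 51.6 with NP, and again msp-74 (1.03).

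Probe sets that list several msp genes gave the same picture without being tied to any copy. All 7 were detected on every pair with DEHP. All 7 were at least 2-fold higher with DEHP than in the control, where 2.87% of all detected probe sets were. Their median was 1.88. They too are of the _x_ type and can match the same near-identical transcripts, so they repeat the reading above and add no separate support. Their summed intensity was 4957 with BPA, 21434 with DEHP and 3766 with NP, against 5960 in the control. A further probe set listing 17 genes, 14 of them msp, read 465 with BPA, 2616 with DEHP and 343 with NP, against 526 in the control.

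The nspd genes, a family of small nematode-specific peptides, held the only other detected single-gene probe sets at least 2-fold higher with DEHP. For nspd-2 the intensity was 47.9 with BPA, 167 with DEHP and 49.2 with NP, against 54 in the control. That of nspd-4 read 62.5 with BPA, 178 with DEHP and 37.8 with NP, against 58.8 in the control. That of nspd-1 read 55.5 with BPA, 166 with DEHP and 71.8 with NP, against 51.7 in the control. Their DEHP minus control differences were 1.63, 1.60 and 1.68. Among all detected probe sets, 2.87% were at least 2-fold higher with DEHP.

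These 3 nspd probe sets are shared and passed the detection level on the DEHP array alone, so being counted required them to be high there. The size of their differences has the same limit and cannot be set beside that of msp. The remaining shared probe set, nspd-7, stayed below it with 78.4 on the DEHP array against 30.9 in the control. The 2 unshared ones, nspd-8 and nspd-9, stayed at or below 22.2 on all 4 arrays. Of the 6 probe sets that list several nspd or several ssp genes, 5 were detected in the DEHP and control pair, and 4 of these were at least 2-fold higher with DEHP, where 2.87% of all detected probe sets were. All 5 reached the detection level on the DEHP array alone, so these counts, like those of the single-gene nspd probe sets, are no support for a difference.

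**Figure D3:**
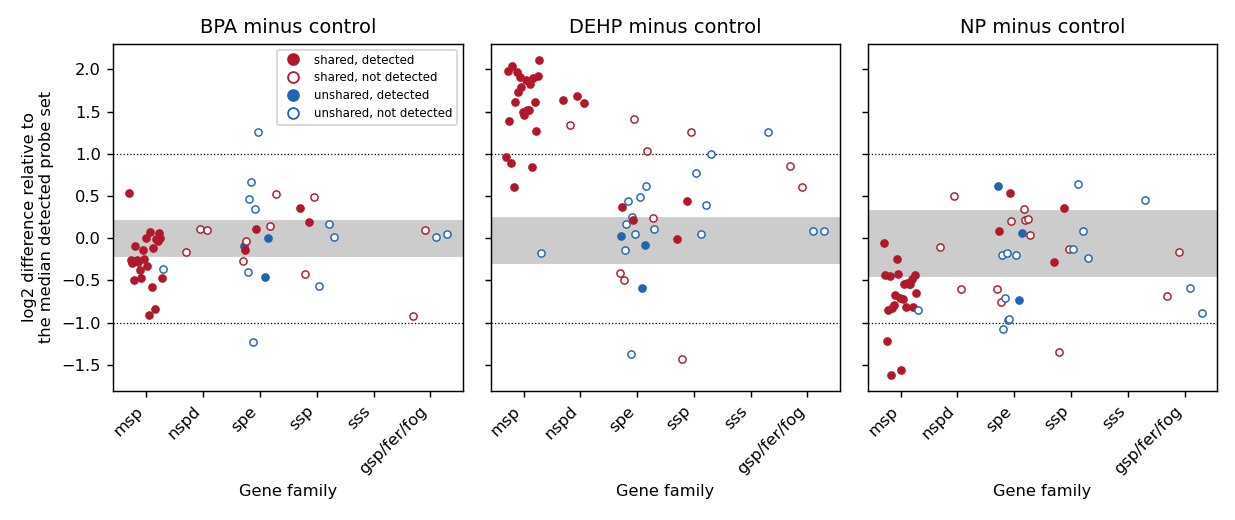
Relative log2 difference from the control on the BPA, DEHP and NP arrays for each probe set that lists 1 member gene, by family, without those at the floor on both arrays. Filled points were detected and open ones were not, red is shared and blue unshared, the grey band is the middle 50% of all detected probe sets (-0.29 to 0.24 with DEHP), and dotted lines mark 2-fold. The shared msp points lie above the band with DEHP and mostly below it with NP, the unshared msp-32 point lies within the band with DEHP (-0.17), and the 5 detected spe points stay within 2-fold on all 3 arrays.

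Of the 30 spe probe sets, 5 were detected, and none of these was 2-fold from the control on any exposed array. Among all detected probe sets, 1.31% were higher and 1.51% lower with BPA. The shares were 2.87% and 5.29% with DEHP, and 2.02% and 8.64% with NP. With only 5 probe sets, the absence of a 2-fold member does not stand apart from these shares. The transcript of spe-44, a transcriptional regulator of sperm genes, was read by unshared probes at 373 with BPA, 356 with DEHP and 383 with NP, against 376 in the control. Its differences were -0.00 with BPA, -0.08 with DEHP and 0.06 with NP. The 4 arrays gave nearly the same intensity for this regulator. This is 1 probe set, and its relation to the msp signal was not tested.

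The other detected spe probe sets included genes that also act outside sperm. Signal for spe-39, which serves vesicle sorting to lysosomes in many tissues, read 1270 with BPA, 1376 with DEHP and 1676 with NP, against 1183 in the control. That of spe-5, a subunit of the vacuolar proton pump, read 197 with BPA, 282 with DEHP and 226 with NP, against 218 in the control. Both are shared. On unshared probes, spe-15, a class VI myosin that helps sort contents into sperm, read 146 with BPA, 134 with DEHP and 119 with NP, against 202 in the control.

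The unshared probe set of spe-48 read 286 with BPA, 312 with DEHP and 460 with NP, against 307 in the control. The relative differences with DEHP were 0.22 for spe-39, 0.37 for spe-5, -0.59 for spe-15 and 0.02 for spe-48. All lay within 2-fold, and spe-15 was the lowest of the detected members with DEHP. With NP the differences were 0.54 for spe-39, 0.08 for spe-5, -0.73 for spe-15 and 0.62 for spe-48.

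Both detected ssp genes, of a sperm-specific family, were read by shared _x_ probe sets and were within 2-fold of the control with DEHP. The ssp-37 probe set read 654 with BPA, 511 with DEHP and 413 with NP, against 512 in the control, a DEHP minus control difference of -0.00. That of ssp-10 read 246 with BPA, 294 with DEHP and 273 with NP, against 217 in the control, a difference of 0.44. The ssp-10 intensity was highest on the DEHP array by a small margin, and that of ssp-37 was not.

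Most unshared member probe sets were not detected on any array. The detection level is the pooled median, which many probe sets of any kind do not reach. Of 15806 unshared probe sets that are not members, 6450 reached it on the DEHP array and 6493 on the control array. Of the 31 unshared member probe sets, 28 lay below the detection level on all 4 arrays, with 95.6 as the highest intensity. The 3 that were detected are spe-15, spe-44 and spe-48. Among the undetected were spe-38, which encodes a sperm surface protein needed for fertilization, spe-6, a kinase that holds back sperm activation, and fer-1, the founding ferlin, needed for vesicle fusion in sperm. For fog-3, which directs germ cells to become sperm, the intensity was 89.3 with BPA, 94.5 with DEHP and 58.1 with NP, against 89.3 in the control.

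The sperm phosphatases gsp-3 and gsp-4 were read by shared probe sets below the detection level. The gsp-3 probe set read 27.9 with BPA, 106 with DEHP and 35.6 with NP, against 58.5 in the control. The gsp-4 probe set read 50.1 with BPA, 71.7 with DEHP and 41.2 with NP, against 47.1 in the control. Among other dim members, the shared probe set of spe-18, needed to form sperm-specific organelles, read 82.7 with DEHP against 16.6 in the control, and the unshared one of sss-2 read 74.3 against 25.7. Differences at these intensities are uncertain in size.

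Shared probe sets in general were not high with DEHP. Among the detected probe sets that are not members, 2.95% of 713 of the _x_ type, 2.11% of 4218 of the _s_ type and 2.85% of 6913 unshared ones were at least 2-fold higher with DEHP than in the control. Their medians were -0.01, 0.01 and -0.01. Of the 30 detected shared members, 22 were at least 2-fold higher, with a median of 1.61. Of the 3 detected unshared members, 0 were, with a median of -0.08. Of the 22, 19 are msp and 3 are nspd, and the 3 nspd probe sets were detected on the DEHP array alone. The other 4 detected shared members, spe-39, spe-5, ssp-10 and ssp-37, lay between -0.00 and 0.44.

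**Figure D4:**
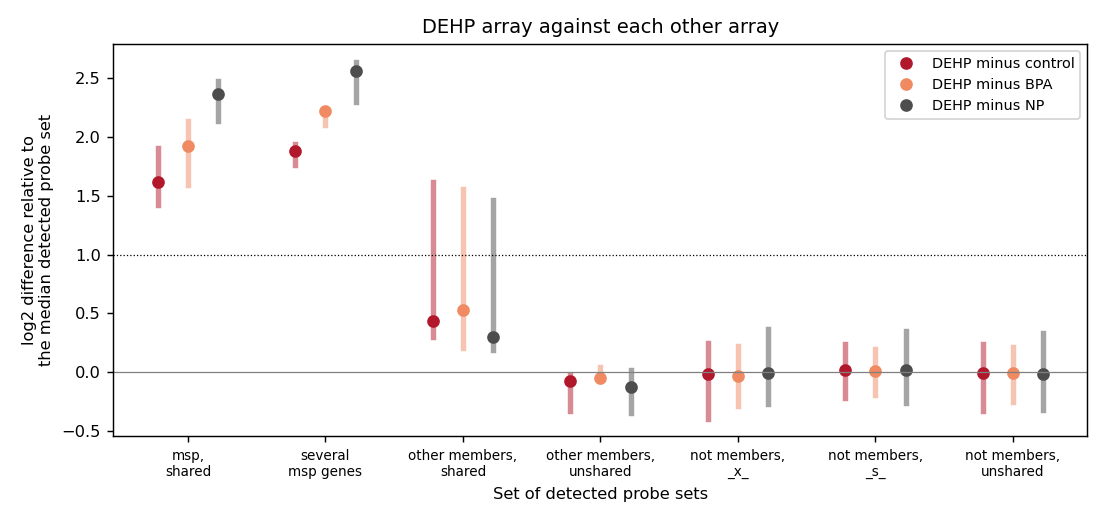
Median (point) and middle 50% (bar) of the relative log2 difference of the DEHP array against the control, BPA and NP arrays, over detected probe sets grouped by membership and by kind. Against the control the medians are 1.62 for shared msp probe sets, 1.88 for those listing several msp genes, 0.44 for other shared members (7, of which 3 nspd probe sets were detected on the DEHP array alone) and -0.08 for the 3 other unshared members, and those of probe sets that are not members lie within 0.05 of 0 for each kind.

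On the NP array the msp signal was below the control for all 23 probe sets in relative terms, by less than 2-fold for most. The median relative difference was -0.64, with a range of -1.62 to -0.06. At least 2-fold lower were 3 of 23, namely msp-142, msp-64 and msp-33, where 8.64% of all 11916 detected probe sets were, and 0 msp were higher, against 2.02%. Signal for msp-142 read 67.2 with NP against 211 in the control, that of msp-64 51.6 against 155 and that of msp-33 118 against 279. The share of msp probe sets past 2-fold was thus 13.0%, of the same order as over all probe sets.

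The NP array carried a different RNA quality reading. The ratio of signal at the 3′ end to that at the 5′ end of the actin control probe sets was 1.22 with BPA, 1.37 with DEHP and 1.88 with NP, against 1.19 in the control. For catalase it was 1.44 with BPA, 1.82 with DEHP and 3.38 with NP, against 1.63 in the control. The part of this in the lower msp signal was not tested. Without centring on the median detected probe set, which lay 0.34 above the control on the NP array, the msp median was -0.30 and kept its sign.

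On the BPA array the msp probe sets were close to the control. None of 23 was 2-fold from the control either way, where 1.31% of all 11757 detected probe sets were higher and 1.51% lower. The median relative difference was -0.25, and 18 of 23 were below 0. The range ran from msp-45 at -0.91, with 163 against 309, to msp-74 at 0.54, with 177 against 123. The 7 detected members of other families had a median of -0.00, with spe-15 (-0.46) and ssp-37 (0.36) at the ends.

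NP and BPA, both phenols, were set side by side at unmatched molar doses. The msp probe sets had a median of -0.38 for NP minus BPA over 22 detected, with 1 at least 2-fold lower, msp-142 at -1.34, where 7.44% of all detected probe sets were lower. That median was -0.07 without centring and -0.09 without the filter on dim probe sets. The msp signal thus separated the DEHP array from both phenol arrays by more than it separated those from each other. With 1 array each, no interval can be given for these differences.

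Other genes of sperm and of the germline were examined in lists. Of 25 other sperm genes 18 were on the array as single-gene probe sets, and 5 of these were detected in the DEHP and control pair, 2 of them at least 2-fold higher, where 2.87% of all detected probe sets were. Both were msd genes, which encode small proteins with a major sperm protein domain. The probe set of msd-2 read 134 with BPA, 552 with DEHP and 96.6 with NP, against 152 in the control, and that of msd-4 read 123 with BPA, 310 with DEHP and 111 with NP, against 137 in the control. Their DEHP minus control differences were 1.86 and 1.19, and both probe sets are shared. In this pair msd-4 reached the detection level on the DEHP array alone. The sperm gene ssq-1, on unshared probes, read 79.9 with BPA, 159 with DEHP and 125 with NP, against 168 in the control. It was at least 2-fold lower with BPA (-1.07), as 1 of the 4 listed genes detected in that pair. Among all detected probe sets, 1.51% were lower with BPA. In a list this short, 1 lower member is not read as a result. The BPA array by itself read ssq-1 too dimly to count as detected, which makes its difference uncertain.

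The pathway that decides between sperm and oocyte was set beside the msp signal. All 16 of its genes were on the array, 15 were detected, and 0 of these were higher or lower on any exposed array. Of all detected probe sets, 1.31% were higher and 1.51% lower with BPA. These shares were 2.87% and 5.29% with DEHP, and 2.02% and 8.64% with NP. A count of 0 among 15 does not stand apart from such shares. Its median with DEHP was 0.14. Signal for fog-1, which promotes sperm fate, read 397 with DEHP against 315 in the control, and that of tra-2, which opposes it, 717 against 494. The gene fog-2, which allows hermaphrodites to make sperm, read 1221 against 1108.

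Oocyte, meiotic and germline genes showed no 2-fold member on any of the 3 exposed arrays. Over all detected probe sets, 1.31% were higher and 1.51% lower with BPA. With DEHP these were 2.87% and 5.29%, and with NP 2.02% and 8.64%. Each list is too short for its count of 0 to stand apart from these shares. The 18 oocyte and eggshell genes had a median of 0.25 with BPA, 0.33 with DEHP and 0.28 with NP. The 16 meiotic prophase genes had medians of -0.06 with BPA, 0.01 with DEHP and 0.31 with NP, and the 10 germline identity genes -0.03 with BPA, 0.17 with DEHP and 0.09 with NP. The yolk receptor gene rme-2, active in oocytes, read 8280 with BPA, 8719 with DEHP and 6873 with NP, against 6812 in the control.

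A list of 13 genes taken as linked to sperm sensing in the gonad was detected in full. It is wider than genes that sense sperm, and fog-2 is also in the pathway above. Its median was -0.18 with DEHP, with no 2-fold member there, where 2.87% of all detected probe sets were higher and 5.29% lower. The ephrin receptor gene vab-1, whose product binds major sperm protein, read 1154 with DEHP against 1112 in the control. With NP, 2 of the 13 were at least 2-fold lower, where 8.64% of all detected probe sets were. These were kin-1, the catalytic subunit of protein kinase A, at -1.35 and ceh-18, a homeobox gene of the gonadal sheath, at -1.11. With DEHP, kin-1 stood at -0.91 and ceh-18 at -0.48, and with BPA at 0.20 and 0.27. Both probe sets are shared.

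Markers of males, which make sperm throughout adult life, were mostly not detected. Of 11 listed genes 10 lay below the detection level on all 4 arrays, with 103 as their highest intensity. On the DEHP array lov-1 read 2.56, pkd-2 8.61 and try-5 15.1, against 3.65, 1.57 and 7.09 in the control. These values all lay under 28.3, the intensity to which dim values were raised, so none of these pairs counts as a difference. Of the 10, only pkd-2 and try-5 read higher with DEHP. The rest read lower, among them cwp-4 at 13 against 103. The detected one, swm-1, a protease inhibitor that keeps sperm from being activated early, read 1940 with DEHP against 2114 in the control. The summed intensity of the other 10 was 338 with BPA, 108 with DEHP and 171 with NP, against 301 in the control.

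Markers of larval and adult stage were examined as well. The molting genes, active around larval molts, had medians of 0.47 with BPA, 0.63 with DEHP and 0.33 with NP over 7, 7 and 8 detected of 10. The only 2-fold member was mlt-10 (1.01 with BPA). Among all detected probe sets, 1.31% were higher and 1.51% lower with BPA. The shares were 2.87% and 5.29% with DEHP, and 2.02% and 8.64% with NP. A single such member in a short list is not read as a result. The detected nas-37, a protease of molting, read below the control with DEHP (-0.15) and NP (-0.50). The summed intensity of the 10 was 9877 with BPA, 10673 with DEHP and 8712 with NP, against 6989 in the control. The adult genes read high on all arrays, with col-19, an adult cuticle collagen, at 3658 with BPA, 4406 with DEHP and 1888 with NP, against 3648 in the control. Among the yolk protein genes, vit-1 stood at 1.62 with DEHP, with 2197 against 717, while vit-2 stood at 0.07. On that list, vit-1 was the only 2-fold member with DEHP, of 6 detected, against the 2.87% given above. The part of stage in the msp signal was not tested.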

How the data were processed

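The deposited values are linear intensities, 1 per probe set, of 22625 probe sets on 4 arrays of C. elegans Genome type. Their mean was 500 on each array once the lowest and highest 2% were left out, so the authors had scaled the intensity values; the summary software is not given in the sources used here. Per the labels, total RNA was purified on RNeasy columns and 5 µg of it was given a biotin label. That protocol speaks of fibroblast cultures, against every other field, and the RNA was taken here to be from worms.

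The 77 control probe sets were set aside. The log2 intensity values of the remaining 22548 deposited probe sets were shifted to a common median (by -0.12 for BPA, 0.02 for DEHP, 0.24 for NP and -0.14 for the control), floored and compared in 6 pairs of arrays. Genes came from the platform annotation, with current symbols and chromosomes from the RefSeq table of WBcel235. The authors' build is not given, so no coordinates are printed. Of the 22548, 20766 list 1 gene, 887 several and 895 none. Lists used the probe set of a gene with the highest mean. For arrays, their number limits the precision. No p-value was computed.

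Named members were the detected ones other than msp, those on unshared probes, the 10 highest and 10 lowest per comparison with the control, and the gene with both kinds; names outside this rule illustrate undetected members or list genes. The members and lists were chosen with earlier results of these data known. A promoter motif search and a protein comparison, planned before, were not run because no sequences were used here. Calculations used Python 3.11.15, numpy 2.4.6, pandas 2.3.3, scipy 1.17.1 and statsmodels 0.14.6, and the calling step was tested on simulated data. Changes were planted there only in probe sets brighter in the control than most members, so the test does not cover calling at the intensities of most members.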

Additional observations from a re-analysis of the deposited data

How the results depend on the processing

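No paired analysis was possible because each group has 1 array. The DEHP minus control result of the msp probe sets kept its direction under every alternative that gave a value: the median ran from 1.61 to 1.78 and the number higher from 17 (of 17 detected, filter at the 75th percentile) to 26 (of 30, with probe sets listing several genes), against 19 of 23. With unshared probe sets alone no msp value could be had, since none was detected. The other members depended on the settings. Their number higher with DEHP, 3 of 10, was 10 of 50 without the filter on dim probe sets, 7 of 15 with probe sets listing several genes, and 0 under the 75th percentile filter, with unshared probe sets alone and with detection by the mean of the 4 arrays. Their DEHP median, 0.30, was 0.65 with probe sets listing several genes, -0.076 with unshared ones and 0.021 with detection by the mean. Without the filter, 2 were lower with DEHP, 1 higher and 1 lower with BPA, and 1 lower with NP. The NP median of msp, -0.64, was -0.30 without centring and -0.31 without the filter, and that of other members, 0.08, was 0.43 without centring and 0.38 under the 75th percentile filter, which also left 0 msp lower with NP. At 1.5-fold, 2 msp were lower with BPA and 12 with NP, and of the other members 1 was lower with DEHP, 1 higher with NP and 1 lower with NP. Detection by the mean and the 1.5-fold threshold were chosen after seeing the data. The cause of these shifts was not tested, except that fewer or more probe sets were counted under each filter. A median was taken as moved past 0.25, and signal near background limits all members below 129.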
